A study of Mus musculus with 25 samples.

Results

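Livers of metformin-treated mice were compared between genotype labels: 5 mice labelled Ncoa5+/- against 3 wild type mice, 8 of the 25 mice in the series. These members were grouped by their labels, and they were chosen with earlier results of these data known. All 8 were C57BL/6 mice aged 39 weeks that had drunk metformin at about 250 mg/kg per day since the age of 8 weeks, for 31 weeks, and were kept on a standard rodent diet. Another 9 mice of the same age, strain and diet drank no metformin, 5 labelled Ncoa5+/- and 4 wild type, and stand beside them wherever the drug is in question. Each mouse gave 1 RNA-seq library of whole liver. The labels name the genotype without describing the deleted part of Ncoa5, and they do not say whether littermates were used. Whole liver mixes hepatocytes with macrophages, endothelial cells, stellate cells and blood, so fewer cells of a type and less RNA per cell cannot be told apart.

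Ncoa5 encodes a nuclear receptor coregulator that binds estrogen receptors. The series title concerns hepatocytes that contain p21, the product of Cdkn1a, in the cytoplasm. Cdkn1a is the classic transcriptional target of p53, a transcription factor that is stabilised after DNA damage and other stress and that switches on genes for cell cycle arrest, DNA repair and apoptosis. One p53 target, Mdm2, encodes the ubiquitin ligase that marks p53 for destruction, which closes a feedback loop. Metformin is a glucose-lowering drug that acts on mitochondrial respiration. The treated comparison addresses which expression differences between the labels are found in livers that have been exposed to the drug for most of adult life.

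Values are FPKM, the fragments of a transcript scaled to its length and to a measure of library size. How the libraries were scaled to each other is not given in the sources used here. Fold changes are differences of mean log2(FPKM + 1), label Ncoa5+/- minus wild type, with ± for the standard error; this scale understates the change of loci near or under 1 FPKM. A locus is called when its Benjamini-Hochberg adjusted p from limma, over all 11441 tested loci, is under 0.05. Across the 8 treated libraries the FPKM sum ran from 857291 to 1647880, and the 50 highest loci took between 43.1% and 72.5% of it. The highest share belonged to mouse 5 labelled Ncoa5+/-. No read counts were given, so depth is unknown and the spread between mice is the measure of precision. Nothing says how the mice were related, so p-values measure the spread between these mice.

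Ncoa5 itself (chr2:165000275-165034867, GRCm38) did not separate the labels. Treated mice labelled Ncoa5+/- gave 3.32, 3.87, 3.88, 3.07 and 3.63 FPKM, against 3.68, 3.58 and 6.64 FPKM in treated wild type animals. The highest value was a wild type mouse, and the other two wild type mice lay inside the range of the mice labelled Ncoa5+/-. The difference of mean log2(FPKM + 1) was -0.27 (two-sided exact permutation p = 0.196, n = 5 and 3; the smallest p this design allows is 0.0179), and it was -0.03 without wild type mouse 3. Every direction below therefore rests on the labels. Of 149 other loci tested within 10 Mb of Ncoa5 on either side, 0 were called and 8 had an unadjusted p under 0.05 (5.37%, against 4.35% of all tested loci).

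Treated mice labelled Ncoa5+/- had higher levels of 18 loci than treated wild type mice, and no locus was called lower. The 18 calls were 0.157% of the tested loci in either direction and the same 0.157% for higher calls, against 0% for lower calls. By limma, 239 loci had an unadjusted p under 0.05 in the higher direction (2.09%) and 259 in the lower direction (2.26%), and the smallest adjusted p of a locus in the lower direction was 0.0663, for the unnamed locus XLOC_024751. In all 18 called loci the lowest mouse labelled Ncoa5+/- lay above the highest wild type mouse, a separation that 2% of tested loci showed; the opposite separation was seen in 1.72%. The called loci were on 12 chromosomes. They fall into 4 groups described below: p53 target genes (Cdkn1a, Phlda3, Eda2r, Bax, Aen), growth and stress signalling genes (Ccnd1, Zak), glutathione transferase genes (Gsta1, Gstm3), and a remainder of 3 protein-coding genes (Mgat5, Tmem43, Zfp958), 1 gene under a clone name and 5 noncoding or unnamed loci.

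**Figure D1:**
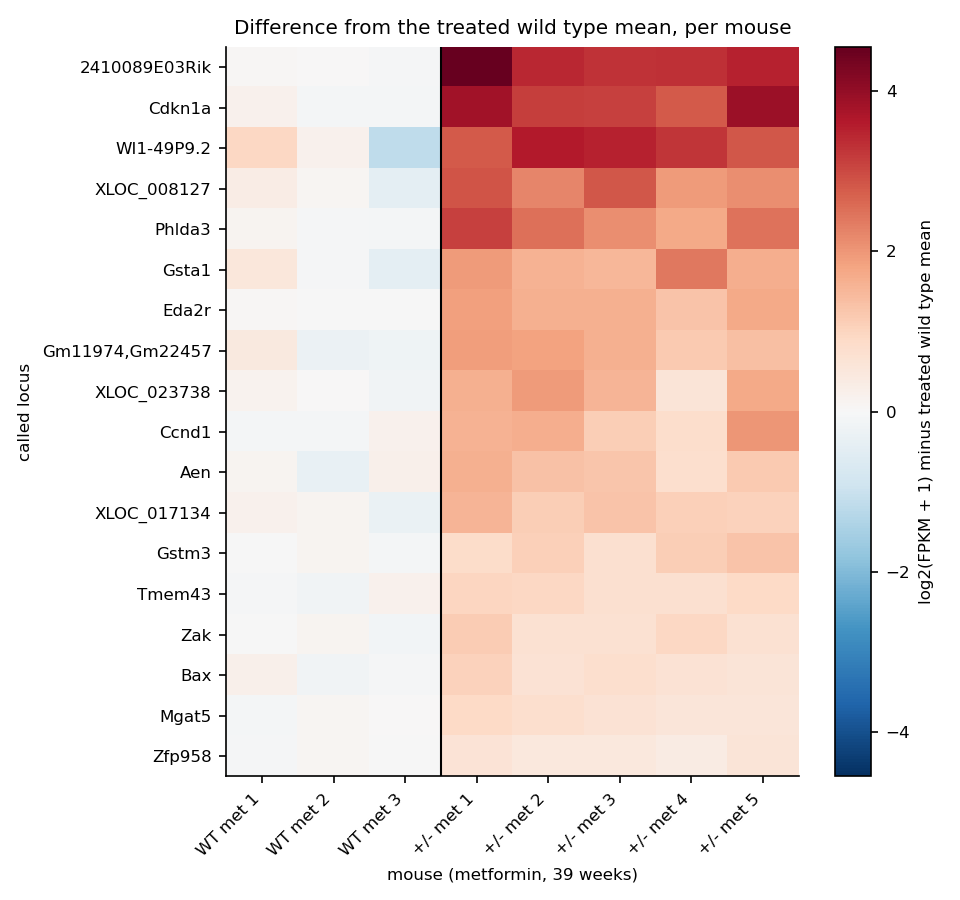
Each cell is 1 called locus in 1 treated mouse, coloured by log2(FPKM + 1) minus the mean of the 3 treated wild type mice; rows are ordered by fold change. Mouse 1 labelled Ncoa5+/- (+/- met 1) was the highest of its group in 12 of the 18 loci and mouse 4 the lowest in 10.

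The differences were not spread evenly over the mice. Mouse 1 labelled Ncoa5+/- was the highest of the 5 in 12 of 18 called loci, and mouse 4 was the lowest in 10 of 18. Even so, the median of the 18 differences from the treated wild type mean was 1.62 for mouse 1 and 1.10 for mouse 4 on the log2 scale. Among wild type mice, mouse 1 was the highest in 11 of the 18 loci and mouse 3 the lowest in 11. Leaving out 1 of the 3 treated wild type mice moved the count of calls most. The count was 11 without wild type mouse 1, 4 without mouse 2 and 5 without mouse 3. It was 12 to 19 when a mouse labelled Ncoa5+/- was left out. Whether group size or the particular mice made this difference was not tested.

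Among the p53 target genes, the promoters of Cdkn1a, Bax and Ccng1 and the start region of Aen each hold a sequence close to the p53 response element, and these are shown because the genes they belong to were among the most different between the labels. The element is a pair of p53 half-sites of 10 bases each, searched here with a spacer of 0 or 1 base, at most 3 mismatches and the C and G of each half-site core intact; the motif reads the same on both strands. Sequences are from RefSeq (GRCm38.p6). They give the 250 bases before the start used there, 5′ to 3′ on the gene's strand, with the match in capitals. Cdkn1a (chr17:29090729-29090978, plus strand) has its match from position -51, with 1 mismatch. Bax (chr7:45466899-45467148, minus strand) has its match from -201, with 2 mismatches and a spacer of 1 base. Ccng1 (chr11:40755287-40755536, minus strand) has its match from -195, with 1 mismatch. For Aen only the match is given (chr7:78895937-78895956, plus strand, 3 mismatches), at -121 from one RefSeq start and +10 from another.
Cdkn1a: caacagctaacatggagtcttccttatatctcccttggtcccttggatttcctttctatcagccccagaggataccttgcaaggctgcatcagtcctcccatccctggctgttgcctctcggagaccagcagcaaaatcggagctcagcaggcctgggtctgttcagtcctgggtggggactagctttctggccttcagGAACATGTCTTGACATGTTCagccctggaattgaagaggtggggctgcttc
Bax: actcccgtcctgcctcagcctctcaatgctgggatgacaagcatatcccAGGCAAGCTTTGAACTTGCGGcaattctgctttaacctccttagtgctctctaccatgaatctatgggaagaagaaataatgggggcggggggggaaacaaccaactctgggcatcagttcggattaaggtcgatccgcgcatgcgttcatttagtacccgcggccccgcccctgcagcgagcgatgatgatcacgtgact
Ccng1: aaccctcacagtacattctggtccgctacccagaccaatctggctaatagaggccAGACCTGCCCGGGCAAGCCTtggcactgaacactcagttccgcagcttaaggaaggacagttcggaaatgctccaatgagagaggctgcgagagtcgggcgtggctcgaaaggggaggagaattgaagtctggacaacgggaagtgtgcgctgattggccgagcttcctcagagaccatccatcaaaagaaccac
Aen: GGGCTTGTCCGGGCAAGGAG

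Such a match was present in the 300-base windows, 250 bases before and 50 after a start, of 884 of 27025 genes in the RefSeq table (3.27%). Of 28 tested p53 target genes with a window, 9 held one (32.1%); the target list was compiled from genes known to respond to p53, which is often how such sites were found. Of 13 called loci with a window, 3 held one (Aen, Bax, Cdkn1a). Of the 9 targets with a match, 6 were not called: Ccng1 and Rps27l with 1 mismatch each, and Sesn1, Bbc3, Tigar and Dcxr with 3. Rps27l, a ribosomal protein paralog, had a mean of 1043 against 861 FPKM (0.28 ± 0.09, limma adjusted p = 0.815). Binding of p53 was not measured, and the number of mismatches allowed was set with the expression values known.

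Cdkn1a, whose product p21 inhibits cyclin-dependent kinases, showed the largest fold change among called protein-coding genes with a regular symbol. Its level was 24.5, 15.0, 14.4, 11.3 and 25.7 FPKM in treated mice labelled Ncoa5+/- and 1.06, 0.684 and 0.673 FPKM in treated wild type mice. The lowest of the first group lay far above the highest of the second. The ratio of means was 22.6 (log2 fold change 3.35 ± 0.49, limma adjusted p = 0.00886; exact permutation p = 0.0179, the smallest possible, and 0.0357 adjusted over Cdkn1a and Ncoa5). Mice 1 and 5 labelled Ncoa5+/- stood at nearly the same high level and mouse 4 at the low end.

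Eda2r, a TNF receptor family member for the ligand EDA-A2, was barely detected in treated wild type livers. It stood at 3.20, 2.54, 2.48, 1.80 and 2.77 FPKM under the label Ncoa5+/- against 0.182, 0.129 and 0.115 FPKM in wild type (log2 fold change 1.63 ± 0.24, limma adjusted p = 0.00886). Phlda3, which represses the kinase Akt, stood at 15.9, 10.2, 7.42, 5.45 and 9.78 FPKM against 1.15, 0.879 and 0.837 FPKM (ratio 10.2; 2.39 ± 0.42, limma adjusted p = 0.0325). For both genes the ranges were far apart, and in both mouse 1 labelled Ncoa5+/- was the highest and mouse 4 the lowest.

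A smaller step on a higher level was seen in Bax, which permeabilises the outer mitochondrial membrane in apoptosis. Bax stood at 73.6, 55.9, 60.4, 55.4 and 53.1 FPKM against 40.6, 30.8 and 33.7 FPKM (ratio 1.70; 0.75 ± 0.12, limma adjusted p = 0.00975). Mice 2 to 5 labelled Ncoa5+/- lay within a narrow band and mouse 1 above them. Aen, an apoptosis-enhancing nuclease, stood at 25.5, 20.8, 19.7, 13.8 and 18.7 FPKM against 8.38, 5.77 and 9.199 FPKM (ratio 2.53; 1.23 ± 0.22, limma adjusted p = 0.0325). The Bax locus overlaps the predicted gene Gm45808 on the same strand, and reads of the pair cannot be told apart.

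**Figure D2:**
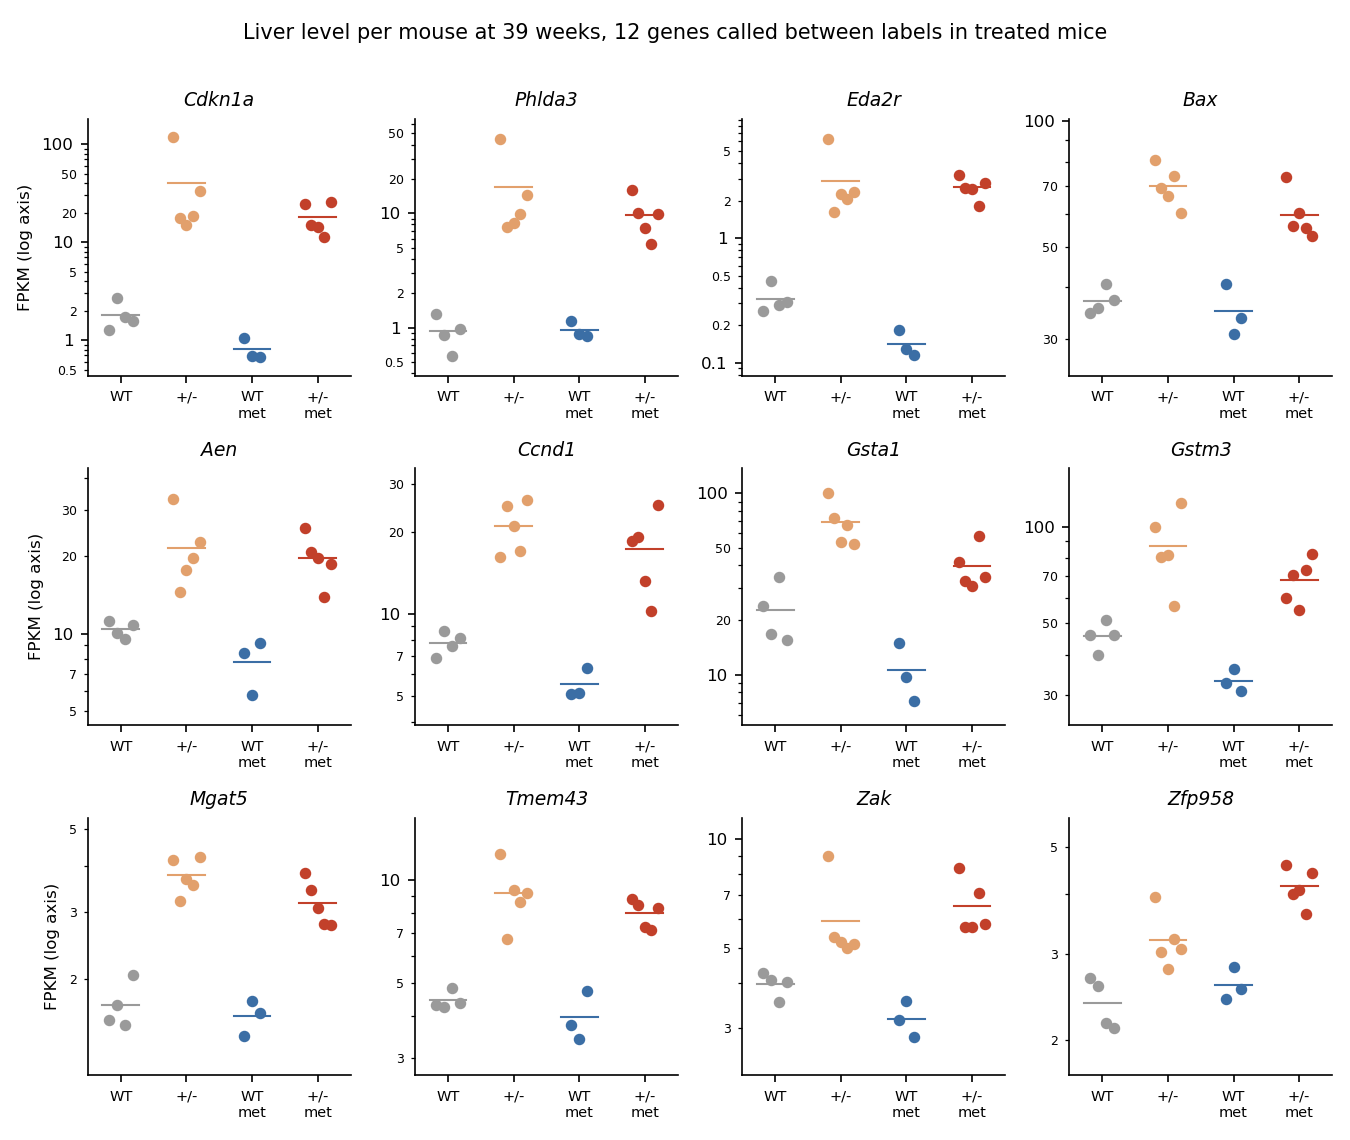
FPKM of 12 called genes in each mouse aged 39 weeks (log axes; points are mice, bars are means): wild type (WT) and label Ncoa5+/- (+/-), without and with metformin (met). In each panel the red points (treated, Ncoa5+/-) lie above every blue point (treated wild type), as for Cdkn1a at 11.3 to 25.7 against 0.673 to 1.06 FPKM.

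Ccng1 and Zmat3, both p53 targets, missed the threshold by a small margin although their groups did not overlap. Ccng1, the gene of cyclin G1, stood at 26.5, 22.6, 20.1, 17.9 and 22.1 FPKM against 8.45, 9.64 and 7.72 FPKM (1.24 ± 0.24, limma adjusted p = 0.0510). Zmat3, an RNA-binding zinc finger gene, stood at 2.78, 3.30, 2.96, 2.39 and 3.35 FPKM against 1.32, 0.718 and 1.49 FPKM (0.88 ± 0.17, limma adjusted p = 0.0510). Ccng1 passed under 8 of 14 other settings and Zmat3 under 8 of 13, and neither passed in a fit that left out 1 treated mouse. Plk2, a polo-like kinase gene, had a mean of 9.86 against 4.72 FPKM (adjusted p = 0.184), and the feedback gene Mdm2 a mean of 15.0 against 10.1 FPKM (0.51 ± 0.17, adjusted p = 0.820).

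Of 46 p53 target genes listed, 45 had a locus of their own and 35 passed the filter on low values. The list was chosen with earlier results of these data known, so its counts describe these data and are no independent test. Of the 35 tested members, 5 were called higher, against 0.157% of all tested loci, 0 were called lower, and 30 did not pass. Fold changes were positive in 26 and negative in 9, against 47.7% positive among all tested loci. The median was 0.22, compared with -0.01 over all tested loci, and 0.09 for the same genes in untreated mice. Without metformin, 7 of these genes were called and 25 were positive, against 0.262% and 44.5% of all tested loci. In treated mice unadjusted p was under 0.05 for 14 of the 35 in the higher direction, against 2.09% of all tested loci. It was under 0.05 for 1 in the lower, Fdxr (9.81 against 12.2 FPKM), a mitochondrial ferredoxin reductase gene. The count of 5 called was 0 without wild type mouse 2 or without wild type mouse 3. The list was not uniform: Bbc3, which encodes the apoptosis activator PUMA, had a mean of 5.80 against 8.01 FPKM (-0.34 ± 0.43), the death receptor gene Fas 9.03 against 9.11 FPKM (-0.01 ± 0.13), and Sesn1 4.78 against 4.99 FPKM (-0.03 ± 0.12), none of which passed the test. Btg2, Plk3 and Gadd45a varied so much between mice that their standard errors were 0.91, 0.69 and 0.55.

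**Figure D3:**
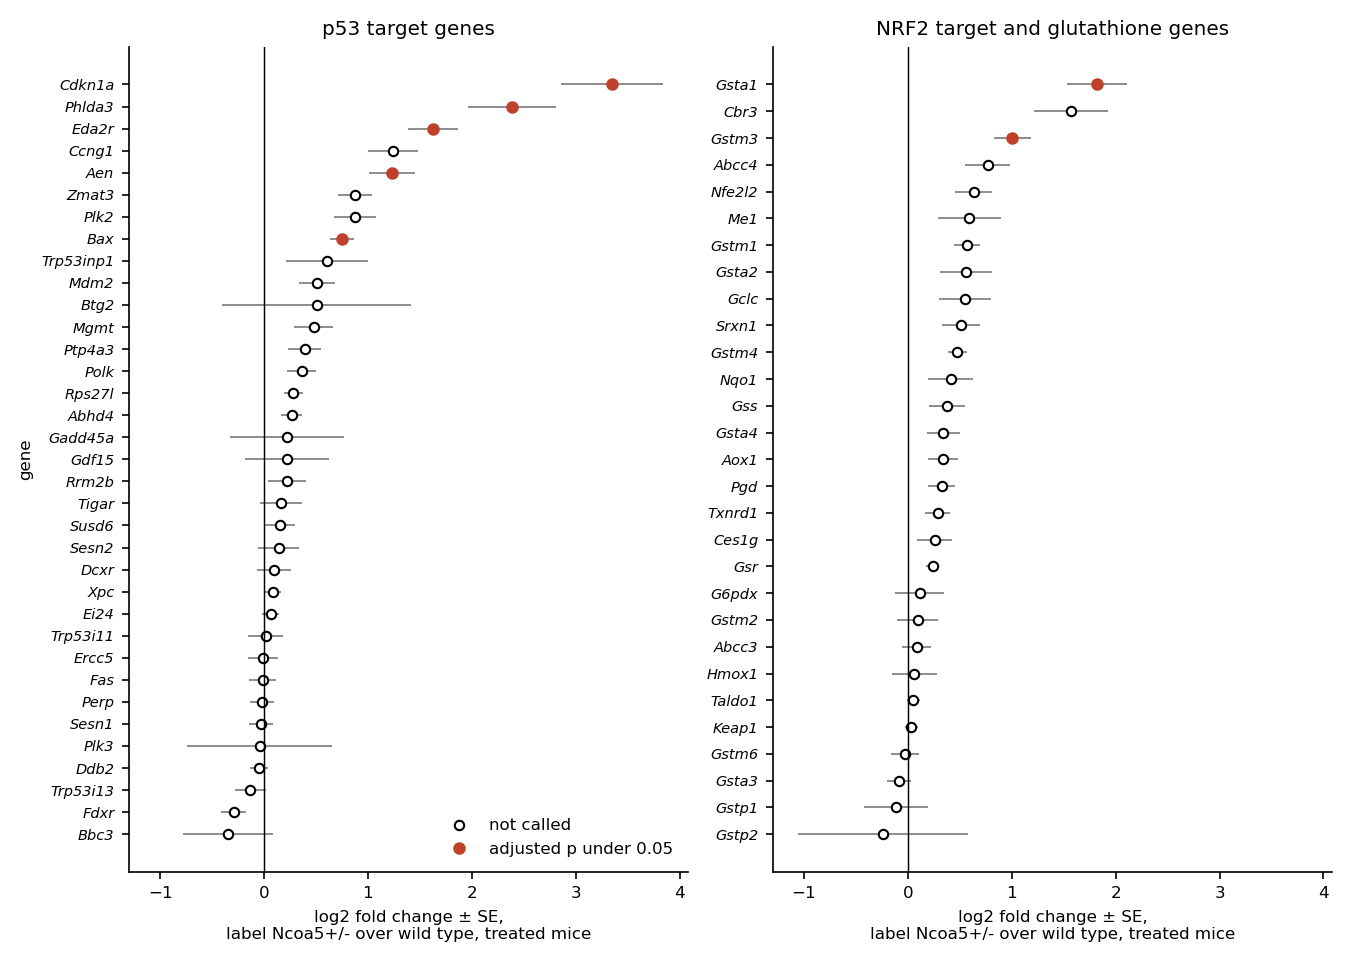
Log2 fold change ± SE, label Ncoa5+/- over wild type in treated mice, of each tested member of the p53 target list (35 genes) and of the NRF2 and glutathione list (29 genes); filled points were called. The called p53 targets lie between 0.75 (Bax) and 3.35 (Cdkn1a), and members not called reach from -0.34 (Bbc3) to 1.24 (Ccng1) in the p53 list and from -0.24 to 1.57 (Cbr3) in the other.

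Transcripts for p53 and its regulators did not pass the test. Trp53, the p53 gene, had a mean of 10.4 FPKM in treated mice labelled Ncoa5+/- and 10.1 FPKM in treated wild type mice (log2 difference 0.03 ± 0.10, limma adjusted p = 1). Of 17 genes listed, 13 were tested, with 0 called, 0 at an unadjusted p under 0.05 and a median of 0.04. The 3 with the smallest p were the acetyltransferase gene Kat5 (5.16 against 6.20 FPKM), the damage kinase gene Atm (2.30 against 2.01 FPKM) and the p53 kinase gene Hipk2 (9.88 against 8.48 FPKM). Levels of p53 protein were not measured.

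Of the genes that drive the G1 phase, Ccnd1, the gene of cyclin D1, was called. It stood at 18.5, 19.1, 13.2, 10.2 and 25.1 FPKM in treated mice labelled Ncoa5+/-, against 5.06, 5.10 and 6.32 FPKM in treated wild type mice (ratio of means 3.13; log2 fold change 1.43 ± 0.22, limma adjusted p = 0.00975). The wild type values were close together, while the other group spread from mouse 4 to mouse 5. The Ccnd1 locus as given also spans LTO1 on the opposite strand, and the library's strand setting is not given in the sources used here. Of 18 tested genes for G1 cyclins, kinases and inhibitors, of 20 listed, 1 was called higher, 0 lower, and the median was -0.03. The next by p were Ccne1, the gene of cyclin E1 (1.97 against 0.953 FPKM, limma adjusted p = 1), and Cdk6 (6.05 against 4.59 FPKM, adjusted p = 1). Ccnd3 (22.7 against 23.3 FPKM) and Cdk4 (29.8 against 28.9 FPKM), which encode another D-type cyclin and its kinase, had close means.

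Genes expressed in S, G2 and M phase mostly lay near or under 1 FPKM. Of 30 listed, 24 had a locus of their own and 12 passed the filter, with 0 called and a median of 0.15. Of these 12, 11 were positive in treated mice and 9 in untreated mice, against 47.7% and 44.5% of all tested loci. By limma, 2 had an unadjusted p under 0.05 in the higher direction, against 2.09% of all tested loci. The smallest p values belonged to the mitotic kinase gene Cdk1 (2.12 against 1.19 FPKM, 0.49 ± 0.19) and to Mcm3 (2.21 against 1.61 FPKM) and Mcm6 (1.95 against 1.33 FPKM), parts of the replicative helicase; limma adjusted p was 1 for each.

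Zak, now named Map3k20, encodes a MAP kinase kinase kinase that responds to ribosome stress. It stood at 8.31, 5.72, 5.72, 7.08 and 5.82 FPKM against 3.16, 3.56 and 2.83 FPKM (ratio 2.05; 0.84 ± 0.15, limma adjusted p = 0.0390). The groups did not overlap, but no fit without a single treated mouse called it (adjusted p 0.0582 to 0.295).

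Glutathione transferases conjugate glutathione to reactive electrophiles, and many of their genes respond to NRF2, the transcription factor encoded by Nfe2l2 and held back by KEAP1. Gsta1 stood at 41.6, 32.8, 30.7, 58.3 and 34.5 FPKM in treated mice labelled Ncoa5+/-, against 15.0, 9.68 and 7.20 FPKM in treated wild type mice (ratio of means 3.73; log2 fold change 1.82 ± 0.29, limma adjusted p = 0.0105). Here mouse 4, the lowest in most called loci, was the highest of its group. Gstm3 stood at 60.1, 70.9, 55.2, 73.3 and 82.1 FPKM against 32.7, 36.1 and 30.9 FPKM (ratio 2.06; 1.01 ± 0.18, limma adjusted p = 0.0354). These genes have relatives of similar sequence that could share reads, so their levels are uncertain.

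Of 34 NRF2 target and glutathione genes listed, 31 had their own locus and 29 were tested: 2 were called higher, 0 lower, and 27 did not pass. Positive fold changes numbered 25 and negative 4, with a median of 0.34 in treated and 0.30 in untreated mice, and 15 had an unadjusted p under 0.05, each in the higher direction. Over all tested loci, 0.157% were called higher, 47.7% were positive and 2.09% had an unadjusted p under 0.05 in the higher direction. This list too was chosen with earlier results of these data known, so its counts are no independent test. The count of 2 called was also 0 without wild type mouse 2 or without wild type mouse 3. Gstm4 stood at 61.8, 64.4, 56.6, 67.1 and 72.4 FPKM against 49.0, 47.8 and 41.2 FPKM, without overlap (0.48 ± 0.09, limma adjusted p = 0.0663). Gstm1, an abundant member, had 2424, 2021, 2025, 2141 and 1942 FPKM against 1748, 1378 and 1185 FPKM (0.57 ± 0.13, adjusted p = 0.143). Cbr3, a carbonyl reductase gene, had a mean of 6.10 against 1.29 FPKM (1.57 ± 0.36, adjusted p = 0.165), and Nfe2l2 itself 45.6 against 29.1 FPKM (0.64 ± 0.18, adjusted p = 0.504).

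Other well-known members of that list did not pass either. Gclc, which limits glutathione synthesis, had a mean of 137 against 92.9 FPKM (0.55 ± 0.25), and the quinone reductase gene Nqo1 7.14 against 5.27 FPKM (0.41 ± 0.22), both with a limma adjusted p of 1. Hmox1, the heme oxygenase gene, stood at 14.0 against 13.2 FPKM (0.06 ± 0.21) and Keap1 at 25.4 against 24.7 FPKM (0.04 ± 0.06). Gstp1, at 2243 against 2283 FPKM, had a difference of -0.11 ± 0.31.

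Mgat5, the glycosyltransferase gene that starts a branch on N-glycans, stood at 3.83, 3.44, 3.09, 2.79 and 2.78 FPKM against 1.40, 1.74 and 1.62 FPKM (ratio 2.01; 0.69 ± 0.10, limma adjusted p = 0.00917). Tmem43, which encodes a protein of the inner nuclear membrane, stood at 8.84, 8.48, 7.29, 7.16 and 8.32 FPKM against 3.77, 3.43 and 4.73 FPKM (ratio 2.02; 0.86 ± 0.13, adjusted p = 0.00917). Both groups were tight for these genes, with neither reaching the other's range. Zfp958, a zinc finger gene, had the smallest called difference: 4.59, 4.00, 4.07, 3.63 and 4.42 FPKM against 2.43, 2.82 and 2.54 FPKM (0.51 ± 0.10, adjusted p = 0.0415). The Mgat5 locus as given also spans Tmem163 on the opposite strand.

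On the log2(FPKM + 1) scale the largest fold change of the called loci was that of 2410089E03Rik (chr15:8169073-8271158); with a pseudocount of 0.1 it was 4.25 against 4.29 for Cdkn1a. The locus is a protein-coding gene now named Cplane1 that acts in ciliogenesis and planar polarity. It stood at 55.2, 24.9, 22.6, 23.0 and 26.3 FPKM in treated mice labelled Ncoa5+/-, against 1.50, 1.43 and 1.29 FPKM in treated wild type mice (ratio of means 21.6; log2 fold change 3.62 ± 0.42, limma adjusted p = 0.00138). Mouse 1 stood apart above the others of its group, which lay close together, and the wild type mice differed little from each other. The call held without any single treated mouse (adjusted p at most 0.0181) and under each of the 14 other settings (at most 0.0272).

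Of the 5 noncoding or unnamed loci, the locus labelled Gm11974 and Gm22457 (chr11:6525591-6528801) coincides with Snhg15, a small nucleolar RNA host gene, and with Snora9 inside it. It stood at 18.1, 17.3, 14.7, 10.6 and 12.2 FPKM against 5.95, 3.25 and 3.52 FPKM (1.59 ± 0.17, limma adjusted p = 0.00138). WI1-49P9.2 (chr3:55578105-55582730), the long noncoding RNA gene Gm43549 of GENCODE, stood at 33.4, 58.8, 54.8, 46.7 and 34.3 FPKM against 8.57, 4.71 and 1.22 FPKM (3.20 ± 0.43, adjusted p = 0.00423). In this locus mouse 1 was the lowest of its group, the reverse of its place in most called loci, and the wild type values were widely spread. XLOC_008127 (chr12:27946219-27987582) overlaps the long noncoding RNA gene Gm45941 and had a mean of 10.1 against 1.10 FPKM (2.39 ± 0.38, adjusted p = 0.0105). XLOC_017134 (chr17:21474540-21478700; 5.83 against 1.94 FPKM, adjusted p = 0.00138) and XLOC_023738 (chr3:100785726-100786586; log2 fold change 1.48 ± 0.26, adjusted p = 0.0325) overlap no gene of that annotation, and the nearest protein-coding genes were Zfp51 and Vtcn1.

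Calls differed in how far they depended on single mice. Of the 18, 4 held in each of the 8 fits that left out 1 treated mouse: 2410089E03Rik, the Snhg15 locus, WI1-49P9.2 and XLOC_017134. Cdkn1a, Eda2r, Bax, Gsta1 and XLOC_008127 were lost without wild type mouse 2 or 3 (adjusted p for Cdkn1a up to 0.0743), Tmem43 without wild type mouse 1 or 2, and Mgat5 and Ccnd1 without any 1 of the 3 wild type mice. Phlda3, Aen, Gstm3, Zfp958 and XLOC_023738 held in 1 of the 8 fits and Zak in none. Every called locus kept a positive difference in all of these fits, but this was fixed in advance. The groups did not overlap in any of the 18, so leaving out 1 mouse could not reverse the sign.

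On the lower side no locus passed, and the loci with the smallest p in that direction and a regular symbol are given as values. Dct, the gene of the melanin enzyme dopachrome tautomerase, stood at 2.65, 2.69, 2.90, 5.04 and 6.42 FPKM in treated mice labelled Ncoa5+/-, against 7.67, 15.9 and 11.9 FPKM in treated wild type mice (-1.39 ± 0.29, limma adjusted p = 0.0933). Slc29a1, the gene of an equilibrative nucleoside transporter, stood at 95.3, 106, 90.0, 133 and 85.6 FPKM against 148, 149 and 144 FPKM (-0.54 ± 0.12, adjusted p = 0.158). The groups did not overlap in either gene. Without mouse 4 labelled Ncoa5+/- the adjusted p of Slc29a1 was 0.0106, and without mouse 3 that of Wfdc21 was 0.0269. Means were 5.42 against 7.89 FPKM for Ankrd33b, an ankyrin repeat gene (adjusted p = 0.209), 1765 against 2734 FPKM for Wfdc21, a secreted WAP-domain gene (0.221), and 22.5 against 29.1 FPKM for the glutaredoxin gene Glrx (0.225). Among loci in the higher direction that did not pass, Mbl2, a lectin of innate immunity, stood at 850, 681, 741, 585 and 548 FPKM against 373, 386 and 260 FPKM (1.01 ± 0.20, adjusted p = 0.0658), and Car2, a carbonic anhydrase gene, at a mean of 3.44 against 2.25 FPKM (adjusted p = 0.105).

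The same label comparison in the 9 untreated mice used other animals. Both comparisons came from 1 fit over all 17 mice and share its estimate of the spread at each locus, so their p-values and calls are not independent; fitted on their own mice alone, the treated comparison called 6 loci and the untreated one 11. All 18 loci called in treated mice had a positive difference there, and in all 18 the untreated groups did not overlap, a separation in that direction that 1.09% of tested loci showed. Each of the 18 had an unadjusted p under 0.05 (5.62% of all tested loci in untreated mice, either direction). In untreated mice 30 loci were called (0.262%), and 15 were called in both comparisons, which is 83.3% of the treated calls and 50% of the untreated calls. The median log2 fold change of the 18 was 1.46 in treated and 1.38 in untreated mice. Across all 11441 tested loci the fold changes of both comparisons had a Pearson correlation of 0.25, a description over loci that share libraries within each comparison.

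**Figure D4:**
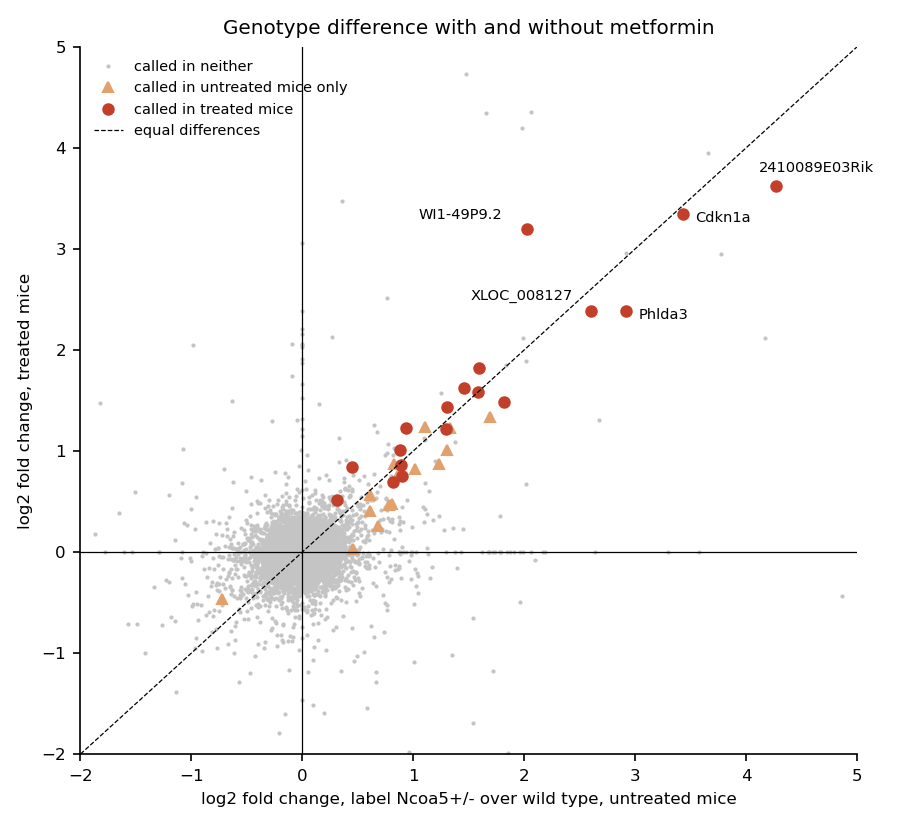
Log2 fold change of label Ncoa5+/- over wild type in treated mice (vertical) against untreated mice (horizontal) for each tested locus; the axes run from -2 to 5, and 46 loci that were called in neither comparison lie beyond them. Loci called in treated mice (circles) lie on both sides of the dashed line of equal differences, such as WI1-49P9.2 above it (3.20 against 2.03) and Phlda3 below it (2.39 against 2.92).

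Aen, Zak and Zfp958 were the 3 treated calls that did not pass in untreated mice, where their log2 fold changes were 0.93 ± 0.20 (limma adjusted p = 0.0892), 0.45 ± 0.14 (0.492) and 0.31 ± 0.09 (0.319). The test of the difference itself, the interaction of genotype label and metformin, called none of the 11441 loci (0%), with 319 loci at an unadjusted p under 0.05 (2.79%) and a smallest adjusted p of 0.991. None of the 18 treated calls was among the 319; the lowest unadjusted interaction p was 0.0601, for WI1-49P9.2 (difference of fold changes 1.17 ± 0.58). For Cdkn1a the difference of fold changes was -0.08 ± 0.66 and for Bax -0.15 ± 0.16. A missed threshold does not show that the label differences were alike with and without the drug.

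Of the 30 loci called in untreated mice, 29 had a positive fold change in treated mice, against 47.7% of all tested loci. In the same direction 28 were separated without overlap, which 2% of tested loci showed for higher and 1.72% for lower levels. None of the 30 had the opposite sign. The 1 locus lower in untreated mice, Slc22a3, encodes organic cation transporter 3, which carries metformin among other cations. In treated livers Slc22a3 stood at 0.317, 0.936, 0.582, 0.771 and 0.531 FPKM under the label Ncoa5+/-, against 0.969, 1.65 and 1.10 FPKM in wild type (-0.46 ± 0.15, limma adjusted p = 0.768). The ranges nearly met, at a level near the lower limit of what was tested. The smallest treated differences among the 30 belonged to Asap3, a gene for a regulator of Arf GTPases (0.03), and Cars, a cysteinyl-tRNA synthetase gene (0.26). The 5 loci with the smallest unadjusted interaction p were Gm10037 (treated 0.48, untreated -0.47), the acetyltransferase gene Nat8 (-0.37 and 0.39), Supt7l, a transcription coactivator subunit gene (0.11 and -0.26), Igkv6-23, an immunoglobulin kappa variable segment (-0.41 and 1.04), and Mtcp1 (-0.23 and 0.24).

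Outside the p53 and NRF2 lists, the gene lists held no called member in treated mice except Ccnd1. Their medians are given beside -0.01 for all tested loci, 47.7% of which were positive in treated and 44.5% in untreated mice. Cytosolic ribosomal protein genes had one-sided signs: of 51 tested, 49 were negative in treated mice (median -0.17), whereas 50 were positive in untreated mice (median 0.11). The median in treated mice stayed negative with quantile normalization (-0.07) and with scaling that leaves out the 50 highest loci (-0.07). The 3 with the smallest p were Rps21 (1265 against 1580 FPKM), Rps27 (2373 against 3194 FPKM) and Rps13 (269 against 308 FPKM), each with a limma adjusted p of at least 0.989. Genes of one complex are not independent observations, and no ribosomal protein gene had groups without overlap.

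**Figure D5:**
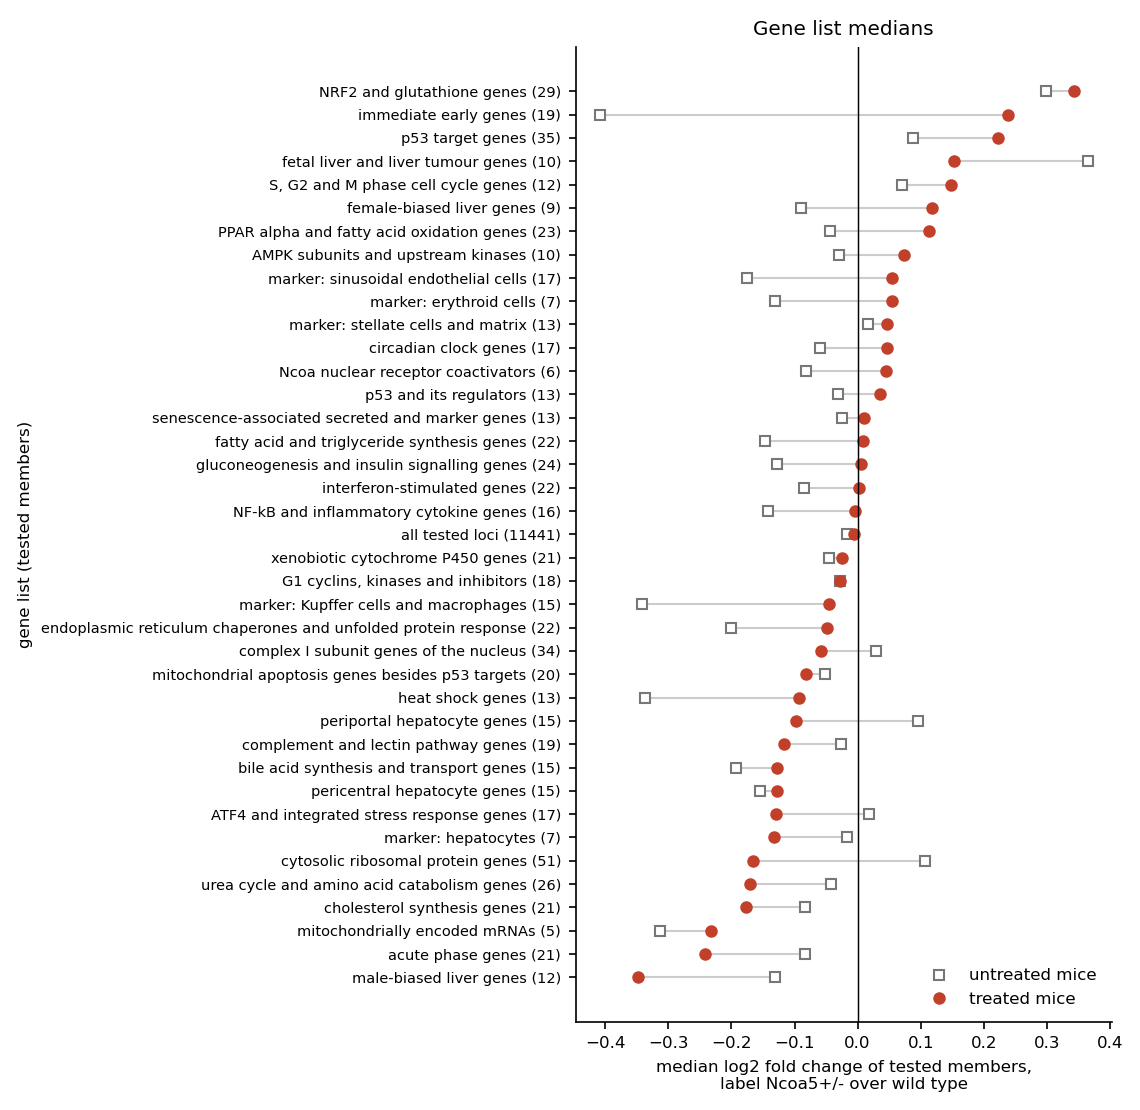
Median log2 fold change (label Ncoa5+/- over wild type) of the tested members of each gene list in treated mice (filled circles) and untreated mice (open squares), with the number of tested members in brackets; lists with fewer than 5 tested members are not drawn. Of the lists drawn, NRF2 and glutathione genes had the highest treated median (0.34) and male-biased liver genes the lowest (-0.35, with 12 of 22 listed genes tested).

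Immediate early genes, which answer growth signals and handling within minutes, had a positive median in treated mice (0.24, 15 of 19 positive, 0 at an unadjusted p under 0.05) and a negative one in untreated mice (-0.41, 2 of 19 positive). Untreated wild type mice varied widely: the 22 listed genes summed to 136 to 1370 FPKM there. The sums were 140 to 255 FPKM in untreated mice labelled Ncoa5+/-. In treated mice they ran from 125 to 200 against 118 to 167 FPKM. The smallest p belonged to Jund, a subunit of the transcription factor AP-1 (27.1 against 23.9 FPKM, 0.17 ± 0.13), and Gadd45b, a stress response gene (2.17 against 1.55 FPKM, 0.30 ± 0.24). Zfp36, an mRNA decay factor gene, had 22.6 against 33.8 FPKM (-0.53 ± 0.50). None of these genes passed any test, and the interaction called none of them.

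Cyp2a4, a steroid hydroxylase gene expressed more in female than in male liver, differed widely without passing the test. It stood at 1.47, 3.03, 9.80, 25.4 and 31.5 FPKM in treated mice labelled Ncoa5+/-, against 0.214, 0.137 and 0.479 FPKM in treated wild type mice (2.96 ± 0.79, limma adjusted p = 0.414). The groups did not overlap, but the first spread over a wide range, from mouse 1 to mouse 5. The other 8 tested female-biased genes were not called either, and Cyp2b9 stood at a mean of 6.68 against 0.408 FPKM (1.74 ± 0.97). Of the 9 tested, 6 fold changes were positive and 3 negative, from -0.88 to 2.96. The list median was 0.12 in treated and -0.09 in untreated mice. Untreated fold changes were 2.92 for Cyp2a4 and -0.09 for Cyp2b9, neither of them called. Of 5 sex-linked genes listed as a check, 4 were tested in treated mice, with 0 called and fold changes from -0.06 to 0.07.

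Several metabolic lists leaned one way without a call, and genes of one pathway are not independent observations. Genes of PPAR alpha signalling and fatty acid oxidation were positive in 22 of 23 tested members (median 0.11); Ehhadh, the peroxisomal bifunctional enzyme, stood at 128 against 94.2 FPKM (0.45 ± 0.15, limma adjusted p = 0.820). Cholesterol synthesis genes were negative in 20 of 21 (median -0.18), among them Ebp, a sterol isomerase gene (268 against 333 FPKM, -0.31 ± 0.10, adjusted p = 0.765), and Msmo1, a sterol oxidase gene (78.4 against 118 FPKM, -0.56 ± 0.30). Urea cycle and amino acid catabolism genes were negative in 22 of 26 (median -0.17), with the proline dehydrogenase gene Prodh at 72.5 against 99.3 FPKM (adjusted p = 0.720). Acute phase genes were negative in 18 of 21 (median -0.24); Itih4, an inter-alpha-trypsin inhibitor chain, stood at 593 against 772 FPKM (adjusted p = 0.884). Male-biased liver genes were negative in 11 of 12 tested, of 22 listed (median -0.35), with the steroid dehydrogenase gene Hsd3b5 at 98.3 against 168 FPKM (-0.82 ± 0.45). Of that list, Mup1, Mup7, Mup11, Mup17, Mup20 and Serpina1e were listed at 0 in all treated mice. Mup3 was left out as a failed estimate, so the median does not cover these genes. In untreated mice the PPAR alpha list had the opposite sign (median -0.04, 6 of 23 positive). Untreated medians were -0.08 for cholesterol synthesis, -0.04 for urea cycle and amino acid catabolism, -0.08 for acute phase and -0.13 for male-biased genes. The signs of the treated medians were the same in the 8 fits that left out 1 treated mouse and under each scaling. Genes for AMPK and its upstream kinases, through which metformin is thought to act in part, had a median of 0.07 over 10 tested members, with 0 called.

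Markers of other liver cell types did not separate the labels in treated mice. None of the listed markers was called. Kupffer cell and macrophage markers summed to 356 to 505 FPKM in mice labelled Ncoa5+/- and 385 to 513 FPKM in wild type mice (17 markers, 15 tested, 4 positive, median -0.04). Sinusoidal endothelial markers summed to 223 to 255 against 215 to 250 FPKM (17 of 17 tested, 14 positive, median 0.05), and stellate and matrix markers to 114 to 135 against 109 to 128 FPKM (13 of 21 tested, 7 positive). T and NK cell markers summed to 4.35 to 16.01 against 5.64 to 8.78 FPKM with 1 tested, and B and plasma cell markers to 3.73 to 22.8 against 3.79 to 8.28 FPKM with 3 tested. Of 16 hepatocyte markers, 7 were usable and tested, with 1 positive and a median of -0.13. Their sums ran from 3247 to 4184 against 3748 to 4286 FPKM. Alb, Serpina1a and Serpina1c were listed at 0 in all treated mice although hepatocytes make them in abundance, and Apoa1, Ttr, Ahsg, Apoa2 and Cyp2e1 were left out as failed estimates, so these markers could not be used to check the tissue. Apob (943 against 941 FPKM) and Asgr1 (450 against 454 FPKM), which hepatocytes express, were abundant in both groups. They were picked with values in view, and the lowest fold change of the 7 was that of Tat (506 against 665.5 FPKM, -0.39 ± 0.43). Cholangiocyte markers summed to 9.04 to 12.8 against 9.63 to 10.3 FPKM, neutrophil markers to 5.02 to 21.5 against 7.99 to 15.3 FPKM and erythroid markers to 507 to 1071 against 500 to 708 FPKM. Adipocyte and pancreas markers summed to 30.8 to 54.9 against 47.1 to 74.6 FPKM, with 2 of 13 tested, both negative; the part of any cell type in the differences above was not tested.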

How the data were processed

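Liver RNA of 17 mice aged 39 weeks was used, 8 of them treated. Per the submitters' processing notes, reads were trimmed with Trimmomatic 0.33, aligned with TopHat2 to GRCm38.p5, and quantified with Cufflinks and Cuffnorm, whose versions are not given in the sources used here. The authors deposited 1 table of FPKM per mouse; they are not counts, so depth is unknown and precision rests on the spread between mice. Groups came from the labels.

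Values were tested as log2(FPKM + 1) with limma 3.58.1 (R 4.3.3; 4 group means over all 17 mice, moderated with a trend, Benjamini-Hochberg adjustment). Of 46052 loci, 11441 whose mean over the 17 mice reached 1 FPKM were tested; 14 loci listed at 0 throughout a group but averaging 1 FPKM or more in another were left out as failed estimates. Ncoa5 and Cdkn1a also had a two-sided exact permutation test. The fit was tested on simulated data. Named genes were the called loci, those nearest the threshold with a regular symbol, the 3 smallest p values of each list, and p53, NRF2 and Ncoa genes; Apob and Asgr1 were added with values in view. The members and lists were chosen with earlier results of these data known. Other pseudocounts, filters, scalings, sample sets and single left-out mice were tried. No libraries were identical. Loci were matched by symbol and position to GENCODE, and promoters to RefSeq by symbol. Tables were made with Python 3.11.15, numpy 2.4.6 and pandas 2.3.3.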

Additional observations from a re-analysis of the deposited data

Results flagged for a closer look

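Among the 32 group-wise checks for a mouse far from the others of its group, 2 were met, where chance gives about 1 in 20. In 2410089E03Rik, mouse 1 labelled Ncoa5+/- stood at 55.22 FPKM and the other treated mice of that label at 22.55 to 26.3 FPKM; its gap to the nearest was 0.83 of the group's range on the log2 scale. In XLOC_023738, mouse 4 labelled Ncoa5+/- stood at 4.163 FPKM and the others at 9.057 to 12.15 FPKM, a gap of 0.713 of the range. In both loci that mouse still lay above all 3 treated wild type mice.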

How the results depend on the processing

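None of the results changed direction under an alternative setting where it had been called. The 18 loci called in treated mice became 10 with a pseudocount of 5, 6 when the treated mice alone were fitted (5 of them among the 18) and 31 with failed estimates kept (22 higher); leaving out 1 treated mouse gave 4 to 19. The 30 loci called in untreated mice became 11 when untreated mice alone were fitted, and 18 to 27 without 1 untreated mouse. The interaction, with 0 calls, gave 2 with no filter on low values, 5 with failed estimates kept, and 0 to 1 without 1 mouse. The 5 called p53 targets became 1 with a pseudocount of 5, 3 with no filter, 3 without libraries holding over 70% of FPKM in 50 loci, and 0 to 5 without 1 treated mouse. The 2 called NRF2 and glutathione genes became 1 with a pseudocount of 5, 1 with no filter, 1 with quantile normalization, 0 with treated mice alone, 1 without libraries over 70%, and 0 to 2 without 1 treated mouse. The exact permutation difference of Cdkn1a was 3.21 without libraries over 70% (adjusted p = 0.0571) and 3.21 to 3.49 without 1 treated mouse (adjusted p 0.0571 to 0.0952), where the smaller design cannot reach the threshold after adjustment. With limma, Cdkn1a had an adjusted p of 0.174 with a pseudocount of 5. The cause of these changes was not tested. No paired analysis was possible because the labels give the mice no replicate numbers. FPKM give no counts, so what depth limits could not be computed.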
